A study of Homo sapiens with 6 samples.

Results

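The genes of DNA double-strand break repair and of the checkpoint it triggers were followed in T98G glioblastoma cells depleted of the kinase DYRK1A. The list comprised 37 genes, found by their symbols among the 23026 genes of the authors' normalized table, and all 37 were present. The rule names the genes and uses no measured value, although earlier results of these data were known when it was set. T98G is an established line, and all 6 libraries came from cells infected with a lentivirus, selected with puromycin and left to recover without it: 3 carried a control short hairpin RNA (shControl 1A, 1B and 1C) and 3 a hairpin against DYRK1A (shDYRK1A 1A, 1B and 1C). The infected cells were a selected pool, and a single hairpin per condition was sequenced. Before RNA extraction, equal numbers of T98G cells had been mixed with a fixed number of Drosophila Kc167 cells, so that counts could be scaled on fly reads.

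A double-strand break is recognised by the MRE11-RAD50-NBN complex, which activates the kinase ATM. ATM phosphorylates the histone around the break, the scaffold MDC1 binds there, and the ubiquitin ligases RNF8 and RNF168 then mark the chromatin for the readers that choose the repair route. TP53BP1, with its effector RIF1, protects the ends and favours end joining, whereas BRCA1 with BARD1 favours resection and homologous recombination. RNF169 reads the same ubiquitin mark as TP53BP1 and limits its accumulation. DYRK1A is known to bind RNF169, which is why these genes were singled out. What was measured here is mRNA alone, and neither protein levels nor repair were assayed.

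The target of the hairpin was lower in every shDYRK1A library. DYRK1A stood at 46.3, 46.7 and 47.2 CPM (counts scaled to the same total of gene counts in every library) in shControl and at 40.4, 33.8 and 38.6 CPM in shDYRK1A. Its log2 fold change was -0.73 with spike-in scaling and -0.34 with TMM, a scaling that centres the human genes on each other (adjusted p 5.33e-06 and 0.000591, edgeR's quasi-likelihood test). The depletion at the mRNA level was thus partial. Libraries held 33708297 to 42154438 gene counts. A principal component with 8.12% of the variance set shDYRK1A 1B apart from shDYRK1A 1A and 1C. Of the markers checked, VIM and CD44 were above 1000 CPM in every library and EGFR above 100 CPM, whereas the glial markers GFAP, SOX2 and S100B had at most 4 counts in any library. NES and OLIG2 lay at 1.06 to 2.02 CPM. Of 5 markers of other cell types, EPCAM reached at most 1.68 CPM and the rest less.

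To put the repair genes on the scale of all genes, 9697 genes with a mean above 10 normalized CPM were tested together, and 34 of the 37 repair genes were among them. With spike-in scaling the whole transcriptome was lower in shDYRK1A, and the median log2 fold change of all genes was -0.40. Bulk RNA cannot tell less mRNA per cell from fewer human cells in the mix. Of the 34 repair genes, 14 were lower past the study's thresholds (adjusted p below 0.05 and log2 fold change below -0.7), where 14.3% of all genes were. None of the 34 was higher past the thresholds, where 0.278% of all genes were. With the adjusted p alone 33 of the 34 were lower, LIG4 being the exception, against 63.4% of all genes. Their median log2 fold change was -0.63, that is, -0.23 relative to all genes.

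The repair genes were next read against the other human genes of the same library. With TMM scaling, which moved the median of all genes to 0.00, 21 of the 34 passed an adjusted p of 0.05 as lower and 0 as higher (edgeR's quasi-likelihood test), against 28.6% and 27.3% of all genes. In this scaling 0 of the 34 were lower past both thresholds, where only 1.93% of all genes were. Likewise 0 were higher past them, as were 121 of the 9697 genes. The sign was negative for 30 of the 34 and positive for RAD52, XRCC6, RAD51C and LIG4, all of which were negative with the spike-in. The TMM value of RAD52 was close to 0 and turned to -0.02 when filterByExpr replaced the filter. The shDYRK1A and shControl libraries did not overlap for 33 of the 34 genes by normalized count (63.6% of all genes) and for 19 by CPM (29.3% of all genes), each time with shDYRK1A lower.

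**Figure D1:**
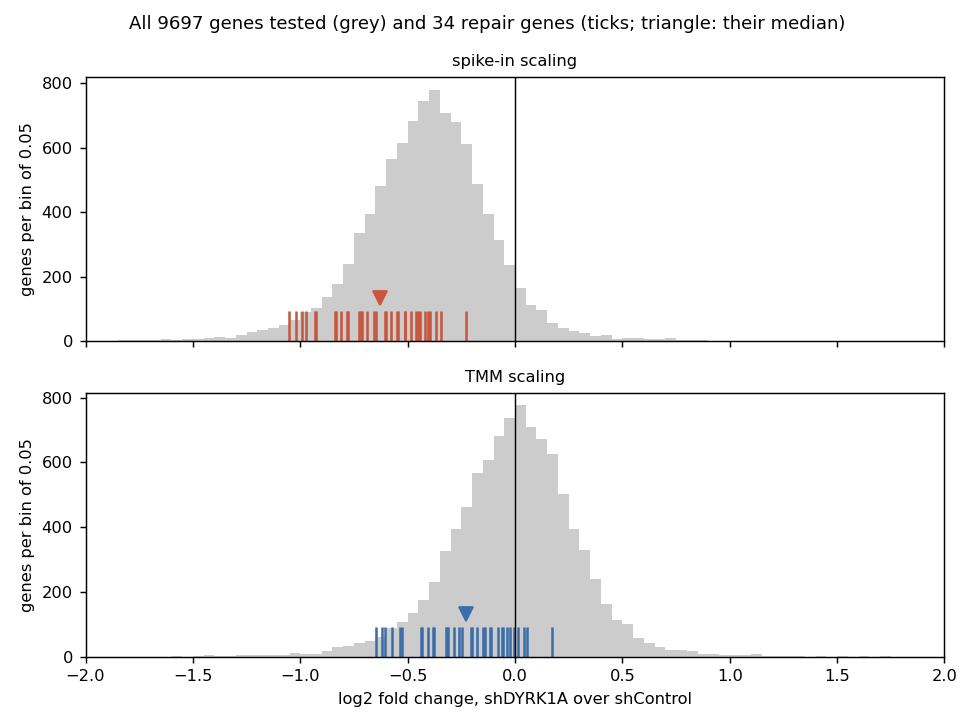
Histograms of the log2 fold change of shDYRK1A over shControl for the 9697 genes tested (grey, genes per bin of 0.05), with spike-in scaling above and TMM scaling below; coloured ticks are the 34 repair genes and the triangle is their median. The median of the repair genes is -0.63 above and -0.23 below, and RAD52, XRCC6, RAD51C and LIG4 lie above the median of all genes in both.

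By role, homologous recombination had the most negative median (-0.81). With spike-in scaling 8 of its 13 genes were past the thresholds, and 11 of the 13 were lower with TMM. Here and below, lower with TMM means lower at an adjusted p below 0.05, not the sign alone. Sensing and chromatin signalling had a median of -0.61, with 3 of the 9 tested genes past the thresholds and 5 lower with TMM. The ATR checkpoint had a median of -0.65, with 2 of the 4 tested genes past the thresholds and the same number lower with TMM. The 3 Fanconi anaemia genes tested had a median of -0.55, with none past the thresholds and 2 lower with TMM. End joining lay closest to the median of all genes, at -0.44, with 1 of its 5 genes past the thresholds and 1 lower with TMM. Over all genes, 14.3% were lower past the thresholds and 28.6% were lower with TMM. The end joining counts, 20% on either scale, lay near these shares. Neither the counts of a role against these shares nor the difference between roles was tested.

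**Figure D2:**
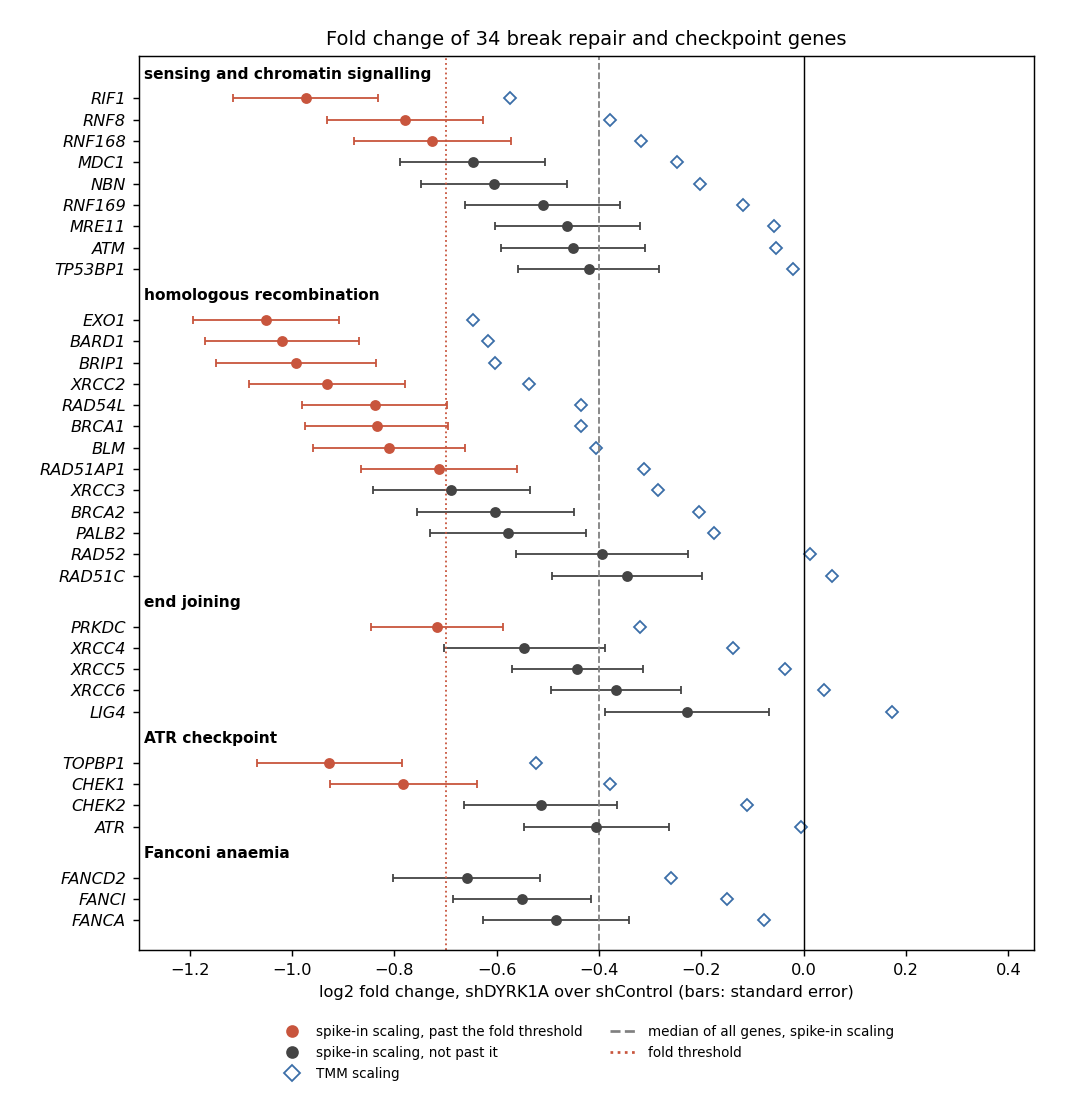
Log2 fold change of the 34 tested repair genes grouped by role, with spike-in scaling (filled circles, bars are the standard error, red where past the thresholds) and with TMM scaling (open diamonds). The dashed line is the median of all genes with the spike-in (-0.40), the dotted line the fold threshold (-0.7), and EXO1 and LIG4 are the extremes on both scales.

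Promoters were searched for short words, since the palindrome TCTCGCGAGA marks promoters to which DYRK1A is recruited. RefSeq promoters (GRCh38.p14, from 250 bases before to 50 after the start) were available for 33 of the 37 genes and were read on both strands. The palindrome was in 0 of the 33, against 0.424% of all 35116 promoters and 1.16% of the 7594 tested genes with a promoter. At such shares 0 of 33 says little. Only exact letters were counted, whereas the study graded its motif matches by their p-value. The core of the palindrome, CTCGCGAG, was in 0 of the 33 as well (1.02% of all promoters, 2.78% of these tested genes). The E2F words TTTGGCGC and TTTCGCGC were in 3 of the 33 (9.09%), against 1.15% of all promoters and 2.58% of these tested genes. The CHR word TTTGAA, known from genes of the late cell cycle, was in 5 of the 33 (ATM, BRIP1, MDC1, RIF1 and RNF169). This is 15.2%, against 15.2% of all promoters and 13.6% of these tested genes. The core lies within the palindrome, so those counts are nested.

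The E2F word is printed here for the 3 genes that hold it, because they span the range of fold changes, from EXO1 (-1.05) and TOPBP1 (-0.93) to XRCC6 (-0.37), together with the CHR word of RNF169. Each line is 30 bases on the strand of the gene, 5′ to 3′, with the word in capitals. The windows are chr1:241848197-241848226 (plus strand) for EXO1, chr3:133661930-133661959 (minus strand) for TOPBP1, chr22:41621315-41621344 (plus strand) for XRCC6 and chr11:74748852-74748881 (plus strand) for RNF169. In TOPBP1, XRCC6 and RNF169 the word is read on the opposite strand.
EXO1: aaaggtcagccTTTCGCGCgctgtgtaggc
TOPBP1: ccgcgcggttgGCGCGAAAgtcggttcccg
XRCC6: tgtccaagttggtcgcttccctGCGCCAAA
RNF169: accgactctcccTTCAAAcgggaaacaaga
The first base of the word lies at position 5 from the start site in EXO1, -7 in TOPBP1, 43 in XRCC6 and 16 in RNF169. EXO1 and TOPBP1 hold TTTCGCGC and XRCC6 holds TTTGGCGC. The median log2 fold change was -0.93 for the 3 genes with an E2F word and -0.65 for the others with a promoter. A match of letters is not evidence of binding.

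Among the homologous recombination genes, EXO1, an exonuclease that resects the broken ends, had the most negative fold change of all 34. Its promoter is one of those with an E2F word. The shControl libraries had 4554, 4212 and 3414 normalized counts, and the shDYRK1A libraries 2249, 1665 and 1966, here and below always in the order 1A, 1B, 1C. Every shDYRK1A library was below every shControl library, and 48.3% of the shControl level remained. This is a log2 fold change of -1.05 (standard error 0.14, adjusted p 8.62e-12), or -0.65 with TMM (adjusted p 3.8e-06).

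BARD1, the obligate partner of BRCA1, followed, with 2021, 2048 and 1643 normalized counts in shControl and 1055, 763 and 998 in shDYRK1A. The groups were separate, and the log2 fold change was -1.02 (standard error 0.15, adjusted p 4.47e-10), or -0.62 with TMM (adjusted p 1.67e-05). BRIP1, a helicase that binds BRCA1, had 1262, 1159.7 and 1102 normalized counts in shControl and 731, 419 and 621 in shDYRK1A. The lowest value was that of shDYRK1A 1B, and the log2 fold change was -0.99 (standard error 0.16, adjusted p 4.47e-09), or -0.60 with TMM (adjusted p 0.000645).

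XRCC2 encodes a factor of the strand-invasion step. It had 1900.3, 1738 and 1536 normalized counts in shControl and 1100.2, 712 and 900.3 in shDYRK1A, again without overlap. The XRCC2 log2 fold change was -0.93 (standard error 0.15, adjusted p 1.68e-08), or -0.54 with TMM (adjusted p 0.000167). Of 2 further genes of this step on the list, XRCC3 had a log2 fold change of -0.69, just short of the threshold of -0.7 (-0.29 with TMM, adjusted p 0.00289), and RAD51C one of -0.35.

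BRCA1 itself had 5419.8, 4828 and 4199 normalized counts in shControl and 3039.8, 2180.1 and 2877 in shDYRK1A. The groups did not overlap on this scale, nor by CPM, where shControl stood at 112.7, 100.9 and 104.7 and shDYRK1A at 82.9, 69.8 and 86.4. The fold change on the log2 scale was -0.84 (standard error 0.14, adjusted p 4.05e-08), and -0.43 with TMM (adjusted p 0.000229). BRCA1 remained past the thresholds whichever of the 6 libraries was left out. PALB2 and BRCA2, which act after BRCA1, had less negative values. PALB2, the bridge between BRCA1 and BRCA2, had a log2 fold change of -0.58, and BRCA2, which acts at resected ends, one of -0.60. Both were lower with TMM as well (-0.18, adjusted p 0.0364, and -0.21, adjusted p 0.0447), but in only 2 of the 6 TMM fits that left out a library, and their CPM overlapped between groups.

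Of the remaining recombination genes, RAD54L, a motor protein of strand exchange, had a log2 fold change of -0.84 and a TMM standard error of 0.04. Its CPM varied little within a condition, at 86.9, 85.1 and 86.5 in shControl and 65.8, 63.2 and 65.0 in shDYRK1A. BLM, the helicase that dissolves joint molecules, had -0.81, and RAD51AP1, an accessory factor of strand pairing, -0.71. All 3 were lower with TMM (adjusted p 8.86e-06, 0.000156 and 0.00288 in that order). RAD51AP1 lay just inside the fold threshold and lost its place in 2 of the 6 fits without a library.

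RAD52 and RAD51C were the recombination genes with the least negative fold changes. RAD52, which anneals single strands, had 485, 531 and 403 normalized counts in shControl and 388, 334 and 356 in shDYRK1A, the first of these close below the shControl minimum. With the spike-in the log2 fold change was -0.39 (standard error 0.17, adjusted p 0.0316), but 0.01 with TMM (adjusted p 0.904). RAD51C had 2082, 1971 and 1748 normalized counts in shControl and 1726, 1437 and 1401 in shDYRK1A. Its log2 fold change of -0.35 (standard error 0.15, adjusted p 0.0303) became 0.06 with TMM (adjusted p 0.445). By CPM both genes overlapped between conditions, so that neither differed detectably from the bulk of the transcriptome.

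**Figure D3:**
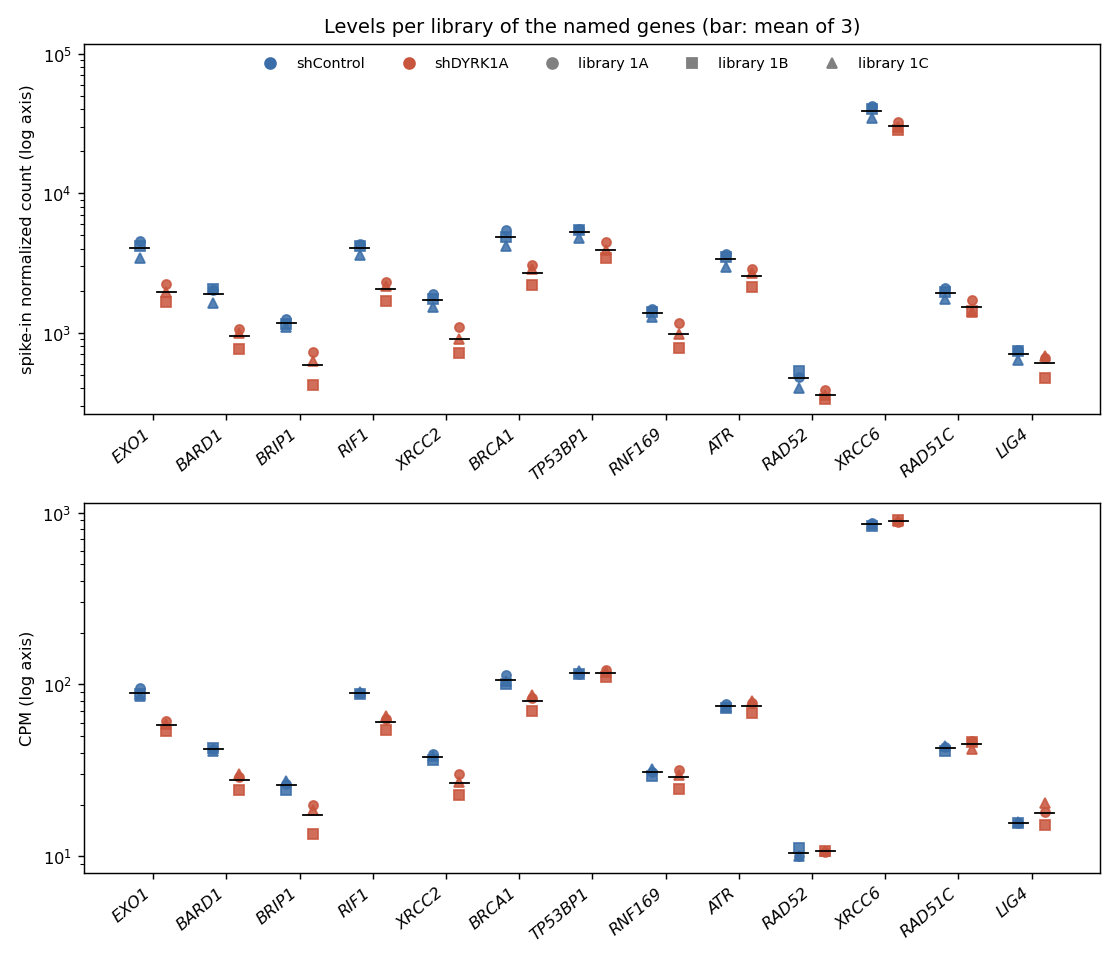
Level of 13 repair genes in each library, as spike-in normalized counts (above) and as CPM (below), both on log axes; blue is shControl, red shDYRK1A, the symbol gives the library letter and the bar the mean of 3. EXO1, BARD1, BRIP1, RIF1, XRCC2 and BRCA1 are separated on both scales, whereas TP53BP1, RNF169, ATR, RAD52, RAD51C and LIG4 overlap by CPM. XRCC6 is also separated on both scales, with shDYRK1A lower by normalized count and higher by CPM.

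RNF169, TP53BP1 and their neighbours in chromatin signalling came next. RNF169 had 1479, 1397 and 1295 normalized counts in shControl and 1170.2, 772 and 985 in shDYRK1A, with no overlap. On the log2 scale it changed by -0.51 (standard error 0.15, adjusted p 0.00213), which is -0.11 relative to all genes. With TMM it was -0.12 (adjusted p 0.216). In CPM the shControl libraries stood at 30.8, 29.2 and 32.3 and the shDYRK1A libraries at 31.9, 24.7 and 29.6, so the groups overlapped and only shDYRK1A 1B lay below the shControl range.

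TP53BP1 lay at the median of all genes. It had 5531, 5484 and 4782 normalized counts in shControl and 4455, 3434 and 3916 in shDYRK1A. With the spike-in it was lower by a log2 fold change of -0.42 (standard error 0.14, adjusted p 0.00509), which is -0.02 relative to all genes, and -0.02 with TMM (adjusted p 0.699). By CPM it was 115.0, 114.7 and 119.2 in shControl and 121.5, 109.9 and 117.6 in shDYRK1A. Without shControl 1A its adjusted p with spike-in scaling was 0.0522.

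RIF1, which acts through TP53BP1 at the break, had by contrast one of the most negative fold changes of the list. It had 4296, 4191 and 3621 normalized counts in shControl and 2305, 1689 and 2169.6 in shDYRK1A. In CPM this was 89.3, 87.6 and 90.3 against 62.9, 54.1 and 65.1. No library of one group entered the range of the other on either scale. The log2 fold change was -0.97 (standard error 0.14, adjusted p 2.39e-10), or -0.57 with TMM (adjusted p 9.81e-06).

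The ubiquitin ligases that write the mark were also past the thresholds. RNF8 had 1418, 1533 and 1291 normalized counts in shControl and 906, 713 and 852 in shDYRK1A (log2 fold change -0.78, adjusted p 3.28e-06). RNF168 had 1369.6, 1379 and 1076 in shControl and 817, 698 and 796 in shDYRK1A (log2 fold change -0.73, adjusted p 1.6e-05). Both were lower with TMM too (-0.38 and -0.32, adjusted p 0.000279 and 0.000865). RNF8 stayed past the thresholds in 5 of the 6 fits without a library and RNF168, closer to the limit, in 3.

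MDC1 had a log2 fold change of -0.65 and NBN one of -0.61, and both were lower with TMM (adjusted p 0.00184 and 0.00861). MRE11, the nuclease of the sensing complex, had -0.46 and ATM -0.45, values close to the median of all genes, and with TMM they were -0.06 and -0.05 (adjusted p 0.428 and 0.595). ATM showed how far a single library could pull: its CPM was 87.3 and 90.4 in shDYRK1A 1A and 1C, above the 3 shControl libraries at 82.0 to 84.0, and 66.7 in shDYRK1A 1B.

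**Figure D4:**
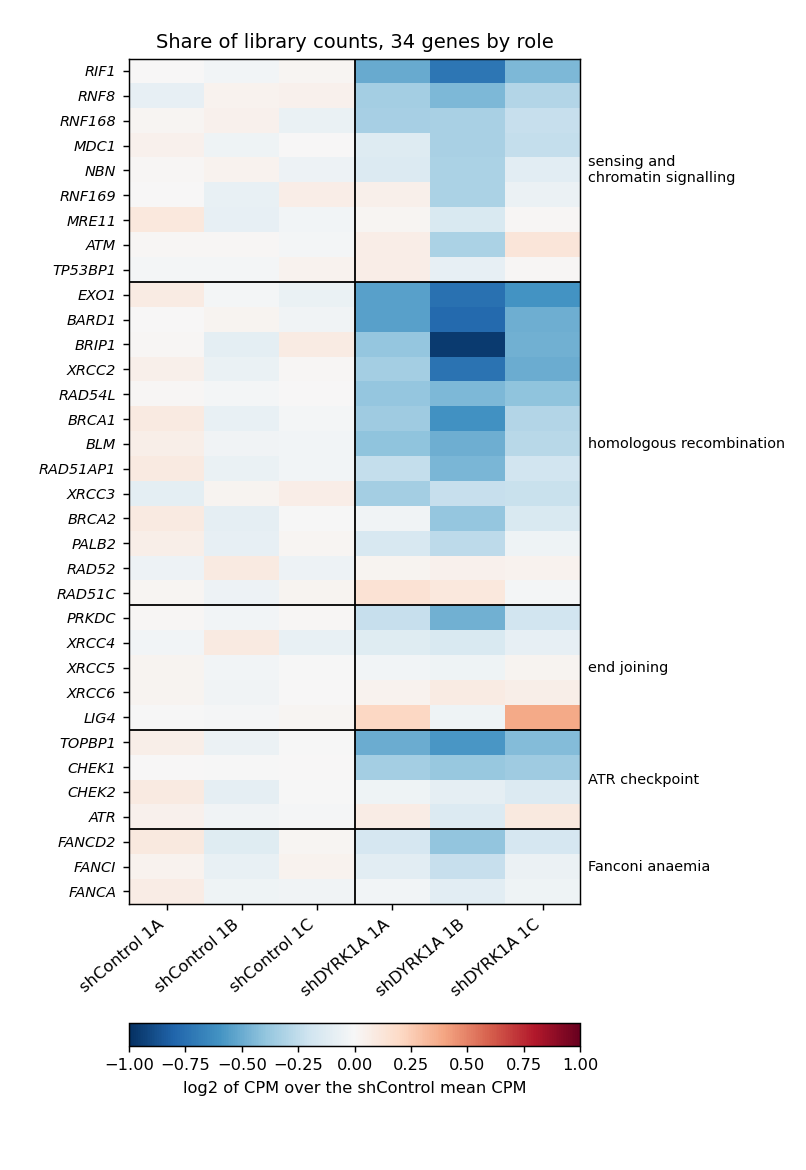
Log2 of the CPM in each library over the mean shControl CPM for the 34 tested repair genes, in rows by role and ordered within a role by spike-in fold change; columns are the 6 libraries and blue is lower. The shDYRK1A columns are blue for most recombination genes, pale for TP53BP1, ATR and most end joining genes, red for LIG4 in 1A and 1C, and deepest in shDYRK1A 1B, where BRIP1 stood at 13.4 CPM against a shControl mean of 26.0.

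The end joining genes included the most abundant transcripts of the list. Per kilobase of exon, XRCC6 had 11808 normalized counts in shControl, XRCC5 had 6117 and PRKDC 2144, against 178 for RNF169 and 97.8 for BRCA2. XRCC5 and XRCC6 encode the Ku heterodimer that caps broken ends, and the promoter of XRCC6 holds the other of the E2F words, TTTGGCGC. XRCC6 had 41987, 40039 and 34452 normalized counts in shControl and 32231, 28320.3 and 29769.5 in shDYRK1A. The log2 fold change of XRCC6, -0.37 (standard error 0.13, adjusted p 0.00824), became 0.04 with TMM (adjusted p 0.478). By CPM XRCC6 stood at 873.1, 837.0 and 858.8 in shControl. The shDYRK1A libraries, at 879.2, 906.8 and 893.7 CPM, all lay above these. With the spike-in the adjusted p of XRCC6, RAD52 and RAD51C each stayed below 0.05 in only 2 of the 6 fits without a library. XRCC5 had a log2 fold change of -0.44 (adjusted p 0.00155), and -0.04 with TMM (adjusted p 0.476).

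PRKDC, the catalytic kinase subunit that Ku recruits, was the end joining gene past the thresholds. It had 35379, 34225 and 29568 normalized counts in shControl and 22752, 16342 and 21225 in shDYRK1A, well apart. Its log2 fold change was -0.72 (adjusted p 3.33e-07), or -0.32 with TMM (adjusted p 0.000784), and it held the fold threshold in 3 of the 6 fits without a library. XRCC4, the scaffold of the ligation step, had -0.55, and -0.14 with TMM (adjusted p 0.0904).

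LIG4, the ligase that seals the ends, was the gene whose groups overlapped even by normalized count. It had 749, 742 and 634 in shControl and 662, 473 and 677 in shDYRK1A. The difference was -0.23 on the log2 scale (standard error 0.16, adjusted p 0.194), and 0.17 with TMM (adjusted p 0.118). LIG4 passed the test in neither scaling. In the TMM fit without shDYRK1A 1B it was higher at an adjusted p below 0.05, and it was the only one of the 34 to be so in any of the TMM fits.

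In the ATR branch, which answers to single-stranded DNA at resected ends and stalled forks, the activator and the effector kinase were lower and the kinase itself was not set apart from other genes. TOPBP1, the activator of ATR, had 4585, 4204 and 3661 normalized counts in shControl and 2384, 1909 and 2253 in shDYRK1A (log2 fold change -0.93, adjusted p 1.46e-09; -0.52 with TMM, adjusted p 7e-06). CHEK1, the effector kinase, had 2793, 2752 and 2320.1 in shControl and 1675, 1391 and 1506 in shDYRK1A (-0.78, adjusted p 6.83e-07; -0.38 with TMM, adjusted p 4.1e-05). Both pairs of groups were separate by CPM as well, and CHEK1 was very even within a condition, at 57.5 to 58.1 CPM in shControl and 44.5 to 45.7 in shDYRK1A.

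ATR had 3689, 3483 and 2968 normalized counts in shControl and 2874, 2121 and 2659.7 in shDYRK1A. The ATR log2 fold change was -0.41 (standard error 0.14, adjusted p 0.00855), and with TMM it was -0.00 (adjusted p 0.95). The adjusted p with the spike-in rose above 0.05 in 3 of the 6 fits without a library, to at most 0.0979. CHEK2, the effector kinase of ATM, had -0.51, and -0.11 with TMM (adjusted p 0.143).

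The Fanconi anaemia genes act on cross-linked DNA and at stalled forks. FANCD2, which is ubiquitylated as a dimer with FANCI, had a log2 fold change of -0.66 and FANCI one of -0.55, and both were lower with TMM (adjusted p 0.00662 and 0.0192). FANCA, of the core complex, had -0.48, and -0.08 with TMM (adjusted p 0.208). FANCM, a DNA translocase, was below the expression filter with 373, 365 and 347 raw counts in shControl and 260, 227 and 317 in shDYRK1A. When edgeR's filterByExpr was used in place of that filter, its log2 fold change was -0.75 (adjusted p 0.000165), or -0.37 with TMM (adjusted p 0.00806).

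The other genes below the filter could not be read. RAD50 had only 62 to 73 raw counts in every library, although its partners MRE11 and NBN were at 48.9 to 67.5 CPM. In the GENCODE v29 annotation 79.66% of the exonic bases of RAD50 are shared with AC116366.3, a gene on the same strand, and reads that fall on both can be left unassigned by a counter. ATRIP, the partner of ATR, had 3, 3 and 3 raw counts in shControl and 3, 0 and 0 in shDYRK1A, and 27.9% of its exonic bases are shared with TREX1. The counts of RAD50 and ATRIP are therefore uncertain, and no direction is given for them.

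Ratios of paired genes within a library were compared next, because they do not depend on any scaling. Of 14 pairs chosen for a known partnership or for related or opposed roles 13 could be computed, ATR with ATRIP being left out for its zeros. The 13 include MRE11 and NBN over RAD50, whose uncertain counts leave these ratios without a reading (both overlapped between groups). With 3 libraries against 3 the two-sided exact permutation test cannot go below p = 0.1, and after adjustment over the 13 pairs no value was below 0.186. The log2 ratio of BRCA1 to TP53BP1, which stand for the opposed repair routes, was -0.03, -0.18 and -0.19 in shControl and -0.55, -0.66 and -0.44 in shDYRK1A. The difference of -0.42 separated the groups (exact permutation p = 0.1).

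The pair with the widest difference was TP53BP1 with its effector RIF1. Its log2 ratio was 0.36, 0.39 and 0.40 in shControl and 0.95, 1.02 and 0.85 in shDYRK1A, a difference of 0.56 (exact permutation p = 0.1). There were 1.31 counts of TP53BP1 per count of RIF1 in shControl and 1.92 in shDYRK1A. The pairs RNF168 with RNF169 and TP53BP1 with RNF169 overlapped between groups, with differences of -0.19 and 0.10 (exact permutation p = 0.2 for each).

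For members of stable complexes the difference was 0.18 for BRCA1 over BARD1, -0.08 for XRCC5 over XRCC6 and -0.11 for FANCD2 over FANCI, each without overlap between groups (exact permutation p = 0.1). It was -0.30 for XRCC4 over LIG4, also without overlap, whereas BRCA2 over PALB2 (-0.03) overlapped. Of the pairs of kinases from separate branches, CHEK1 over CHEK2 (-0.27) was without overlap and ATM over ATR (-0.06) overlapped.

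**Figure D5:**
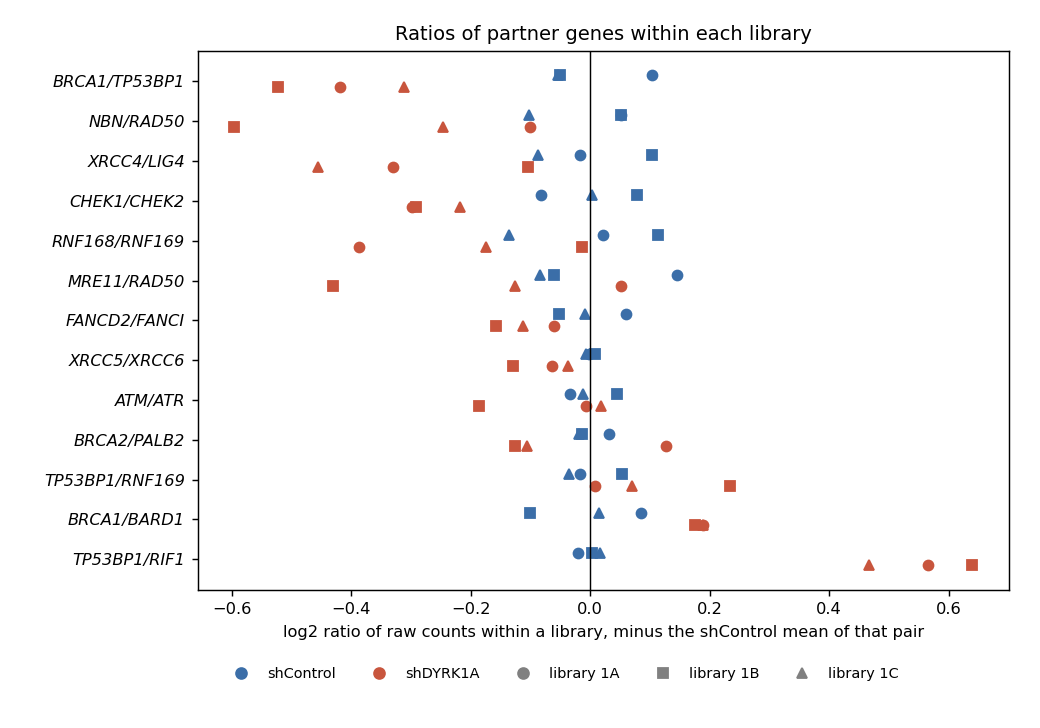
Log2 ratio of the raw counts of 2 paired genes within each library, minus the shControl mean of that pair, for 13 pairs. Blue is shControl, red shDYRK1A and the symbol gives the library letter. BRCA1/TP53BP1 lies 0.31 to 0.52 below its shControl mean in shDYRK1A and TP53BP1/RIF1 0.47 to 0.64 above it, while BRCA2/PALB2 and ATM/ATR scatter around 0.

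Further genes of the same pathways were then counted. Of 71 further genes of break repair and checkpoints, 70 were found and 64 passed the filter, with SHLD3 the one not found. With the spike-in 26 of the 64 were lower past the thresholds (14.3% of all genes) and 55 by the adjusted p alone (63.4% of all genes), with a median log2 fold change of -0.64. With TMM 43 were lower and 6 higher, against 28.6% and 27.3% of all genes. The most negative fold changes were those of RAD1 (-1.28), a subunit of the checkpoint clamp, USP1 (-1.18), the deubiquitylase of FANCD2, and CLSPN (-1.07), the adaptor that presents CHEK1 to ATR. At the other end were BABAM2 (-0.10) and UIMC1 (-0.08), both of the complex that holds BRCA1 at ubiquitylated chromatin, and PAXX (0.18), which stabilises Ku at ends. None of these 3 passed the test with the spike-in (adjusted p 0.541, 0.629 and 0.28), and all 3 were higher with TMM (0.30, 0.32 and 0.59, adjusted p 0.000639, 0.000173 and 6.35e-05). The complex of BABAM2 and UIMC1 did not move as a whole. Its further listed subunits ABRAXAS1 (-0.68), BRCC3 (-0.58) and BABAM1 (-0.44) were lower with the spike-in. With TMM, ABRAXAS1 and BRCC3 were lower (-0.26 and -0.18, adjusted p 0.0184 and 0.0327), and BABAM1 did not pass (-0.04, adjusted p 0.719).

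Transcripts of the replication machinery were lower in shDYRK1A as well. Of 25 markers of S phase, none of which is on the repair lists, 24 were lower past the thresholds with the spike-in (14.3% of all genes). All 25 were lower with TMM (28.6% of all genes), and their median log2 fold change with the spike-in was -0.93. Their summed level was 3714 to 3844 CPM in shControl and 2749 to 2816 CPM in shDYRK1A. The summed level of the 37 repair genes was 4046 to 4222 CPM in shControl and 3567 to 3884 CPM in shDYRK1A. This sum rests largely on XRCC6, XRCC5 and PRKDC, with means of 856, 737 and 729 CPM in shControl. Many recombination and checkpoint genes, among them EXO1, BRCA1, BARD1 and CHEK1, are known to be transcribed mainly as cells enter and pass through S phase. The part of the cell cycle in the values above was not tested.

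Library shDYRK1A 1B held the lowest value of most repair genes. It had the fewest gene counts, 33708297, and the largest share of unmapped reads, 15.6% against 8.4 to 11.9% in the others. Whether this bears on the values was not tested. Of the 34 repair genes, 33 had their lowest shDYRK1A normalized count in 1B and all 34 their lowest shControl count in 1C, as did 79.8% and 99.1% of all genes. By CPM, 28 of the 34 were lowest in shDYRK1A 1B, against 53.2% of all genes. Without shDYRK1A 1B, 10 of the 34 stayed past the thresholds (BARD1, BLM, BRCA1, BRIP1, CHEK1, EXO1, RAD54L, RIF1, TOPBP1 and XRCC2), where 9.47% of all genes did. With TMM and without that library 19 were lower, against 29.9% of all genes.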

How the data were processed

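Poly(A) RNA of 6 libraries (3 shControl, 3 shDYRK1A, grouped by sample title) was analysed. The labels do not say whether libraries came from separate cultures, so p-values measure the spread between these libraries. The authors deposited raw counts per gene, made from stranded paired-end reads (STAR is named in the processing notes, without a version), and a table of signal, the counts divided by a constant per library from fly reads. A further deposited table of the authors' own comparison (log2 fold changes, score statistics and p-values) was not used. Unmapped, multimapping, feature-less and ambiguous reads (18.9 to 25.0% of reads) were kept out of library sizes. The build was GRCh38, and 95.83% of gene coordinates equalled GENCODE v29, whose exons gave lengths and overlaps. Per-sample columns that matched no sample numbered 0.

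Genes with a mean above 10 normalized CPM entered the robust quasi-likelihood fit of edgeR 4.0.16 (R 4.3.3), with the authors' constants as size factors and Benjamini-Hochberg adjustment over 9697 genes. Standard errors are the fold change over the square root of F. The pair ratios used a two-sided exact permutation test (scipy 1.17.1, Python 3.11.15). Also tried were scaling by TMM or by median of ratios, DESeq2 1.42.0, filterByExpr, no filter, a replicate block and leaving out each library. The fits were tested on simulated data. Members, roles, pairs and further lists were chosen with earlier results of these data known. Named with full statistics were RNF169, TP53BP1, BRCA1, DYRK1A, and the 5 lowest and 5 highest fold changes, then the extremes of each role, the genes below the filter, and the 3 lowest and 3 highest further genes. Genes beyond this rule were named after their values were seen. Promoter sequences were those of RefSeq.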

Additional observations from a re-analysis of the deposited data

How the results depend on the processing

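The counts depended on the scale. With TMM or median-of-ratios scaling 0 of the repair genes and 2 of the further pathway genes were lower past the thresholds with either, 21 repair genes were lower by adjusted p with either, and over all genes 187 and 184 were lower and 121 and 125 higher. In these scalings the sign turned for RAD52 (0.0123 and 0.0156), XRCC6 (0.0398 and 0.0429), RAD51C (0.0559 and 0.0590) and LIG4 (0.17 and 0.17). DESeq2 called 14 repair genes, the same 14 as edgeR, and the replicate block also 14 (1394 over all genes). The same-letter libraries correlated by 0.151, 0.0728 and 0.128 after removing group means, so the letters were not taken as pairs, although each library correlated best with its own letter. With filterByExpr and with no filter beyond 1 count, 15 repair genes were called, 2492 and 2468 of all genes were lower and 229 and 224 higher, since more genes were tested. Leaving out 1 library moved the repair genes past the thresholds between 10 (without shDYRK1A 1B) and 18 (without shControl 1C or shDYRK1A 1A), all genes lower between 920 and 2098, and all genes higher between 17 (without shControl 1C) and 33. Combinations with TMM were added after seeing the data: 22 repair genes were lower with filterByExpr, 21 with the replicate block, and 18 without shControl 1A or 1C, 19 without shDYRK1A 1B, 20 without shDYRK1A 1A or 1C and 21 without shControl 1B. Of the named genes, RNF169, TP53BP1, ATR, RAD52, XRCC6 and RAD51C lost their adjusted p below 0.05 under at least 1 alternative. Without a library the pair differences of BRCA2 over PALB2 (-0.1158 to 0.0108, above 0 without shDYRK1A 1B or 1C) and of ATM over ATR (-0.0965 to 0.0055, above 0 without shDYRK1A 1B) turned sign. Beyond the alternatives' own construction the cause was not tested. With filterByExpr the standard error was 0.26 for RAD50 at 1.71 CPM and 0.18 for FANCM at 8.16 CPM.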
